A study of Homo sapiens with 4 samples.

Results

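The anaphase-promoting complex, or APC/C, is the ubiquitin ligase that ends mitosis, and the expression of 10 genes that build, feed or restrain it was examined in HaCaT cells after knockdown of ALKBH5. The genes were taken by exact gene name from the 58735 genes of the deposited expression tables. They are the activators CDC20 and FZR1, the inhibitor FBXO5, the ubiquitin-conjugating (E2) enzymes UBE2C and UBE2S, the subunits ANAPC1, ANAPC11 and CDC27, and securin (PTTG1) with separase (ESPL1). All 10 were found as 1 row each, and all 10 passed the expression filter. Of these genes, 9 were expressed at a higher level in the knockdown at an adjusted p under 0.05, as were 19.3% of all genes tested. The change was largest for ESPL1 at 2.23-fold, UBE2S at 2.10-fold and UBE2C at 1.97-fold, while ANAPC11 did not pass the test.

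HaCaT is an immortalized human keratinocyte line. Cells of WT genotype were transfected with a normal control siRNA (siControl), and cells labelled ALKBH5 knockdown received an siRNA against ALKBH5, an eraser of the m6A mark on RNA (siALKBH5). Each group had 2 libraries of poly-A RNA. The labels give neither the time after transfection nor which of the siRNAs of the study was used, and they do not say that replicates were separate cultures, so the p-values below measure the spread between these libraries, which may be technical.

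The 4 libraries held between 16017502 and 18837807 counts on genes. ALKBH5 was counted 1512 and 1576 times in the controls and 956 and 816 times in the knockdown, a log2 fold change of -0.85 ± 0.05 (SE, the standard error, adjusted p = 6.4e-15). Every one of the 6 keratinocyte markers was detected, and their summed level was between 15135 and 15508 CPM (counts scaled to library size) in siControl and between 20507 and 20535 in siALKBH5. The sum was carried by KRT5, with a mean of 7034 CPM in siControl and 11248 in siALKBH5, while KRT14 and SFN were also higher on average and KRT17 (1116 and 1059 CPM), TP63 (275 and 258) and CDH1 (385 and 368) were lower. Among markers of other cell types, COL1A2, PDGFRA and TYR had 0 counts, no leukocyte marker had over 4 counts in a library, and PECAM1 had at most 1. Among those detected, the mean level in siControl and siALKBH5 was 16.9 and 16.4 CPM for COL1A1, 3.59 and 1.52 for DCN, 1.89 and 0.888 for LUM, 18.8 and 26.7 for VWF, and 13.8 and 8.51 for CDH5. The melanocyte markers PMEL (2.36 and 3.06 CPM) and MLANA (0.529 and 0.439) were also detected. COL3A1 had at most 3 counts in a library and DCT at most 2. Mitochondrial genes took 10.2% of counts in each control library, against 9.63% and 9.64% after knockdown. The part of these shifts in the results was not tested.

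The APC/C marks proteins with ubiquitin chains for destruction by the proteasome. CDC20 activates it in early mitosis and FZR1 from late mitosis through G1, and each brings substrates to the complex. FZR1 is also called CDH1 but is a different gene from the keratinocyte marker CDH1 above. UBE2C places the first ubiquitins and UBE2S extends the chain. Destruction of securin frees separase, which cuts cohesin and lets sister chromatids part. The mRNAs of several of these regulators are known to rise and fall with the cell cycle, with a peak in G2 and mitosis. In bulk RNA, a larger share of cells in one phase and more RNA per cell cannot be told apart.

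Promoter sequences from RefSeq on GRCh38.p14 are shown for CDC20, ESPL1, PTTG1 and UBE2S, because these mRNAs rose together and their promoters differ in the motifs they hold. Capitals mark matches, on either strand, to the CHR (cell cycle genes homology region, TTTGAA or TTCGAA) and to the CCAAT box (CCAAT). Each line gives 100 bases, 5′ to 3′ along the gene, that end upstream of the first annotated exon.
CDC20, chr1:43358855-43358954, plus strand: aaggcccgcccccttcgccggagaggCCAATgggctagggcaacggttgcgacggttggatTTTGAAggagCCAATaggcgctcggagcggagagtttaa
ESPL1, chr12:53268199-53268298, plus strand: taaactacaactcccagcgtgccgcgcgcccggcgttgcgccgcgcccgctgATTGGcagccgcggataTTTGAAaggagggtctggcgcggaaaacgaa
PTTG1, chr5:160421722-160421821, plus strand: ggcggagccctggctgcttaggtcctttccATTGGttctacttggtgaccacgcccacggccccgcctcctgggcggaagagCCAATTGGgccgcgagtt
UBE2S, chr19:55407789-55407888, minus strand: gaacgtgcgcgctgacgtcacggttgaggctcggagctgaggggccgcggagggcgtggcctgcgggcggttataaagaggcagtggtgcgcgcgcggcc

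In CDC20 a CHR match at base -65 from the RefSeq start lies between CCAAT boxes at -100 and -55. A further CHR match in CDC20, on the other strand at -178, lies outside the stretch shown. ESPL1 has a CHR match at -31 and a CCAAT box on the other strand at -48. PTTG1 has CCAAT boxes and no CHR match in its windows, and UBE2S has a single CCAAT box at -191, outside the stretch shown. Windows of 300 bases, from 250 before to 50 after each start, were searched. A CHR match was found in 5 of the 15 windows of these genes and in 16.4% of all 35116 windows. The 5 were 1 window each in CDC20, ESPL1, FBXO5, FZR1 and ANAPC1. In FZR1 the match began far upstream, at -226, and in ANAPC1 it began at 37, past the start. A CCAAT box was found in 10 of the 15 and in 34.6% of all windows. The 10 belong to 7 of the 9 genes with an entry, namely CDC20, ESPL1, PTTG1, FBXO5, UBE2S, CDC27 and ANAPC11. PTTG1 and ANAPC11, which did not pass the test below, each hold more than 1 of these windows. CHR and CCAAT together were found in 3 of the 15, in CDC20, ESPL1 and FBXO5, and in 6.38% of all windows. The E2F sites TTTGGCGC, TTTCCCGC, TTTGCCGC and TTTCGCGC were found in 0 of the 15 and in 3.31% of all windows. A match is a run of letters and not a shown binding site. The 15 windows belong to 9 genes, some with several starts that can share bases, and UBE2C has no entry.

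The activators were compared first, to ask how the mRNAs that switch the complex on stood in the knockdown. CDC20 (ENSG00000117399, chromosome 1 from 43358955 to 43363203 on GRCh38) was counted 2283 and 2471 times in the controls and 4538 and 4067 times in the knockdown. Scaled to library size, this is 139.5 ± 3.08 CPM in the controls against 245 ± 2.95 CPM in the knockdown (SD, n = 2 each). Both knockdown libraries were far above both control libraries. The log2 fold change was 0.81 ± 0.03 (SE, adjusted p = 1.1e-19 by the edgeR quasi-likelihood test), or 1.76-fold.

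FZR1 (ENSG00000105325, chromosome 19 from 3506273 to 3538330) was counted 981 and 1097 times in the controls and 1323 and 1212 times in the knockdown. Its level was 60.9 ± 0.0607 CPM in the controls against 72.2 ± 1.99 CPM in the knockdown (SD, n = 2 each), and the groups did not overlap. The change was small, with a log2 fold change of 0.24 ± 0.05 (SE, adjusted p = 0.0003). The 95% interval of the log2 fold change was 0.74 to 0.88 for CDC20 and 0.14 to 0.35 for FZR1, so the intervals of the activators did not overlap.

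FBXO5, also called EMI1, holds the APC/C inactive in S and G2 phase. FBXO5 (ENSG00000112029, chromosome 6 from 152970519 to 152983579) had the fewest counts of the 10 genes, with 172 and 210 in siControl and 307 and 302 in siALKBH5. It stood at 11.2 ± 0.705 CPM in the controls against 17.4 ± 1.35 CPM in the knockdown (SD, n = 2 each). Its log2 fold change was 0.63 ± 0.12 (SE, adjusted p = 4.2e-05), with a 95% interval from 0.40 to 0.87 that was the widest of the 10 genes.

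Both E2 enzymes rose. UBE2C (ENSG00000175063, chromosome 20 from 45812576 to 45816957), which starts the ubiquitin chain, was counted 1315 and 1460 times in the controls and 3058 and 2581 times in the knockdown. This is 81.4 ± 0.331 CPM in the controls against 160.3 ± 4.87 CPM in the knockdown (SD, n = 2 each), with a log2 fold change of 0.98 ± 0.04 (SE, adjusted p = 1.5e-19). UBE2S (ENSG00000108106, chromosome 19 from 55399745 to 55407777), which lengthens the chain, was counted 703 and 742 times in the controls and 1715 and 1410 times in the knockdown. Its level was 42.4 ± 1.69 CPM in the controls against 88.8 ± 4.34 CPM in the knockdown (SD, n = 2 each), with a log2 fold change of 1.07 ± 0.06 (SE, adjusted p = 6.1e-17). The 95% intervals of the log2 fold change, 0.90 to 1.06 for UBE2C and 0.95 to 1.18 for UBE2S, overlapped. UBE2C lay just under the fold threshold of the study, a log2 fold change of 1, and passed it without siALKBH5 replicate 2, at 1.01.

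Securin and separase, the inhibitor and the protease that it holds, both rose. PTTG1 (ENSG00000164611, chromosome 5 from 160421822 to 160428744) was counted 1244 and 1265 times in the controls and 2109 and 1837 times in the knockdown. The level of securin mRNA was 73.8 ± 4.88 CPM in the controls against 112 ± 0.911 CPM in the knockdown (SD, n = 2 each), with a log2 fold change of 0.61 ± 0.05 (SE, adjusted p = 1.2e-12). ESPL1 (ENSG00000135476, chromosome 12 from 53268299 to 53293643) was counted 444 and 532 times in the controls and 1186 and 1053 times in the knockdown. Separase mRNA went from 28.6 ± 1.42 CPM in the controls to 63.7 ± 0.345 CPM in the knockdown (SD, n = 2 each), with a log2 fold change of 1.16 ± 0.07 (SE, adjusted p = 4.6e-16). The change of ESPL1 was the largest of the 10 genes. Its 95% interval, 1.02 to 1.29, lay above that of PTTG1, 0.51 to 0.70.

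Of the 3 subunits, ANAPC1 and CDC27 rose by less than the E2 enzymes. ANAPC1, the large scaffold subunit (ENSG00000153107, chromosome 2 from 111611639 to 111884690), was counted 482 and 607 times in the controls and 755 and 691 times in the knockdown, with a log2 fold change of 0.37 ± 0.07 (SE, adjusted p = 0.00013). CDC27, a scaffold subunit that helps bind the activators (ENSG00000004897, chromosome 17 from 47117703 to 47189422), was counted 868 and 1005 times in the controls and 1193 and 1112 times in the knockdown, with a log2 fold change of 0.26 ± 0.06 (SE, adjusted p = 0.00036). ANAPC11, the catalytic RING subunit (ENSG00000141552, chromosome 17 from 81890790 to 81900991), was counted 883 and 964 times in the controls and 1087 and 956 times in the knockdown. Its log2 fold change of 0.10 had a 95% interval from -0.01 to 0.22 and an adjusted p of 0.16, which does not show that it stayed the same.

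**Figure D1:**
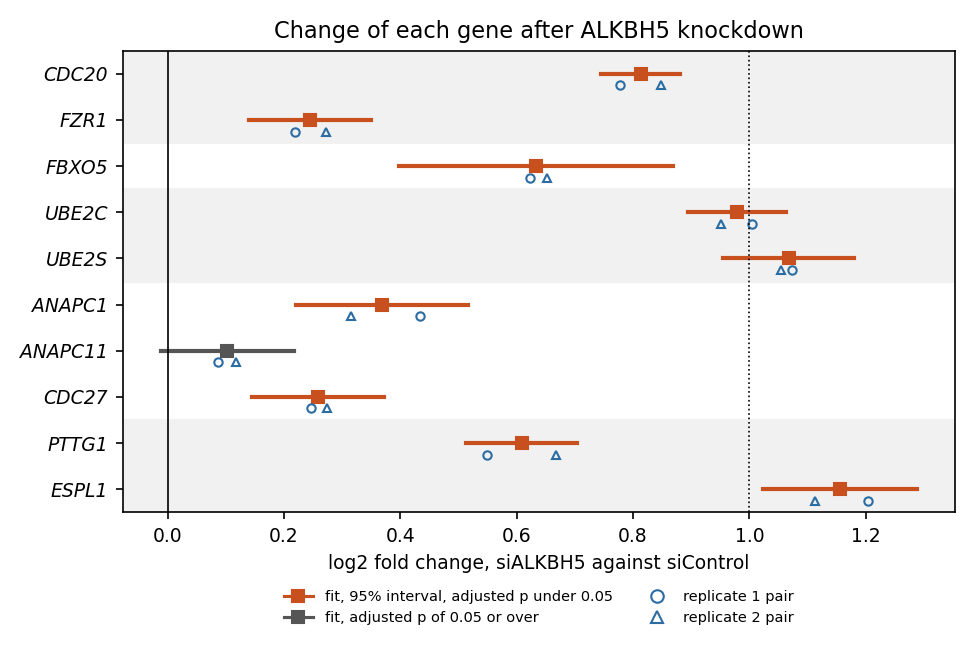
The log2 fold change of each of the 10 genes (squares) with its 95% interval (bars) from the edgeR fit to 4 libraries, and the log2 ratio of siALKBH5 to siControl CPM within replicate 1 (circles) and replicate 2 (triangles). The bands group genes by role and the dotted line marks a log2 fold change of 1. The ratios of all 10 genes are above 0 in both replicates, and the interval of ANAPC11 reaches 0.

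Counted together, 9 of the 10 genes rose past an adjusted p of 0.05, against 19.3% of all 15075 genes tested, and 0 were lower, against 17.3%. No gene of the 10 was lower at an unadjusted p under 0.05, against 3231 of all 15075 genes tested. None was lower with DESeq2 either, against 10.5% of all genes given an adjusted p. With DESeq2 9 genes were higher as well, against 15.1% of all genes given an adjusted p. ESPL1 and UBE2S also passed a log2 fold change of 1, as did 1.62% of all genes. Both siALKBH5 libraries exceeded both siControl libraries for all 10 genes, ANAPC11 included, and for 32.8% of all genes. The median log2 fold change was 0.62 over the 10 genes and -0.0081 over all genes. The genes were chosen with earlier results of these data known, so these counts are a description of the genes and no independent evidence.

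Levels per kilobase of gene length (FPKM, recomputed from the counts on a common scale) were then compared between the genes. In siControl the highest level was that of CDC20, at 68.5 ± 1.51 FPKM (SD, n = 2), followed by UBE2C at 63.3 ± 0.257 and PTTG1 at 36.6 ± 2.42. UBE2S (15.2 FPKM), ANAPC11 (13.5), FZR1 (10.5) and CDC27 (8.04) lay in the middle. ESPL1 (3.21 FPKM), FBXO5 (2.92) and ANAPC1 (2.28) were lowest. In siALKBH5 UBE2C stood first, at 125 ± 3.79 FPKM (SD, n = 2), and CDC20 second, at 120.2 ± 1.45, and the order of the other 8 genes was that of the controls. Neighbours in the order did not overlap between their 2 libraries in either group. UBE2C and CDC20 in siALKBH5 lay close, with 122 to 127 FPKM against 119 to 121. Among the subunits, ANAPC1 was at 2.28 and ANAPC11 at 13.5 FPKM in siControl. The gene lengths are those of all annotated exons, so a level per length depends on which transcripts a cell makes.

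**Figure D2:**
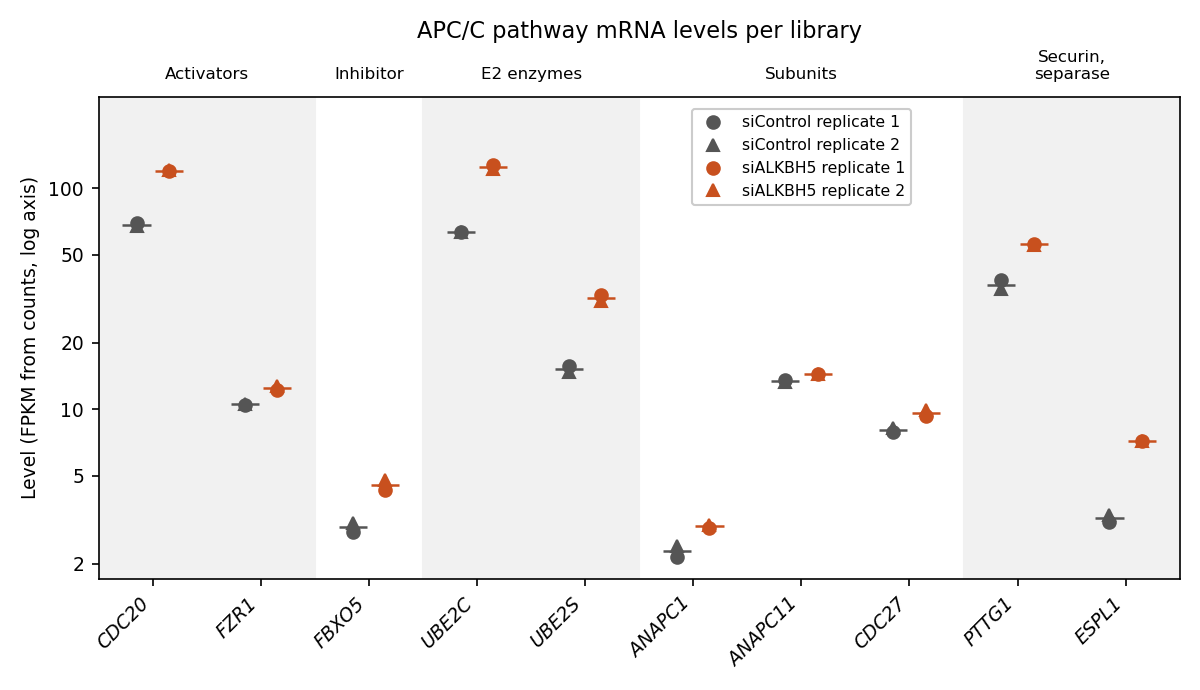
Levels of the 10 genes in each library as FPKM recomputed from counts, on a log axis, for siControl (grey) and siALKBH5 (orange), with circles for replicate 1, triangles for replicate 2 and a line at the mean. CDC20 rises from 68.5 to 120.2 and UBE2C from 63.3 to 125, while ANAPC11 lies at 13.5 and 14.4.

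Because the genes changed by different amounts, the ratios between them within a library were examined, which do not depend on library scaling. The ratio of CDC20 to FZR1, per kilobase, was 6.63 and 6.41 in siControl and 9.77 and 9.55 in siALKBH5. FBXO5 to FZR1 was 0.265 and 0.290 in siControl and 0.351 and 0.377 in siALKBH5. Both ratios to FZR1 were higher in both knockdown libraries. Securin to separase, PTTG1 to ESPL1, fell from 12.4 and 10.5 in siControl to 7.85 and 7.70 in siALKBH5. UBE2C to UBE2S was 4.06 and 4.27 in siControl and 3.87 and 3.97 in siALKBH5, a difference of the size of the spread between libraries. UBE2C to the subunit CDC27 was 8.04 and 7.71 in siControl and 13.6 and 12.3 in siALKBH5. With 2 libraries against 2, an exact two-sided permutation test cannot give a p under 0.333, so the ratios were not tested.

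**Figure D3:**
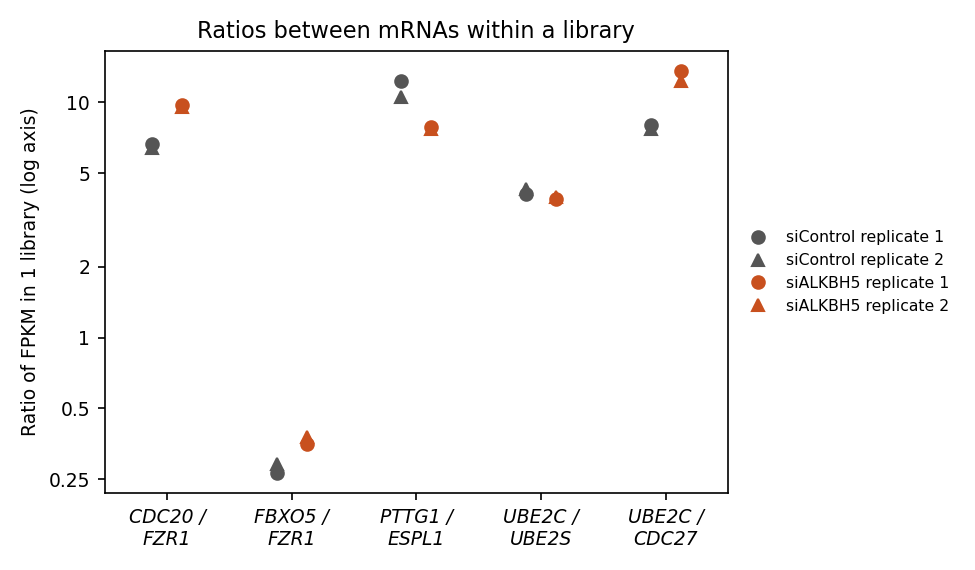
Ratios of FPKM between 2 genes within each library, on a log axis, for siControl (grey) and siALKBH5 (orange), with circles for replicate 1 and triangles for replicate 2. PTTG1 to ESPL1 is lower in both siALKBH5 libraries, at 7.85 and 7.70, and CDC20 to FZR1 is higher, at 9.77 and 9.55.

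Further genes of the pathway were put into lists written for this report, not taken from a database. Every gene of a list was counted, whatever way it moved here. The lists were chosen with earlier results of these data known. Their counts are thus a description and no independent evidence. Of the 11 other subunits of the complex, 0 were higher with edgeR, against 19.3% of all genes. At an unadjusted p under 0.05 none was higher, against 3422 of all 15075 genes tested. None was higher with DESeq2, against 15.1% of all genes given an adjusted p. Of the same 11, 2 fell past an adjusted p of 0.05, against 17.3% of all genes, and 9 did not pass. Their median log2 fold change was -0.047. The lower ones were ANAPC16, a small subunit, at -0.23 ± 0.04 (SE, adjusted p = 2.4e-05), and ANAPC13 at -0.20 ± 0.07 (SE, adjusted p = 0.024). With DESeq2 only ANAPC16 of these 11 was lower, against 10.5% of all genes given an adjusted p, and ANAPC13 did not pass (adjusted p = 0.14). ANAPC2, the cullin that holds the RING subunit, had a log2 fold change of -0.043, CDC23 of -0.002, ANAPC7 of -0.003, ANAPC5 of 0.016, ANAPC15 of 0.043 and CDC26 of -0.047. CDC16 was at -0.14, ANAPC4 at -0.25 and ANAPC10, a substrate receptor with 42 to 67 counts in a library, at -0.42, none of them past the test. With ANAPC1, ANAPC11 and CDC27, 14 subunits were measured, of which 2 were higher and 2 lower with edgeR, and 2 higher and 1 lower with DESeq2. Over all genes edgeR called 19.3% higher and 17.3% lower. The median log2 fold change was -0.023.

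The mitotic checkpoint complex, which blocks CDC20 until chromosomes are attached, was listed together with the factors that take it apart. Of these 5 genes 4 rose past an adjusted p of 0.05, against 19.3% of all genes, and 0 were lower, against 17.3%. The same number was higher with DESeq2, against 15.1% of all genes given an adjusted p. The median log2 fold change was 0.50, against -0.0081 over all genes. BUB1B, which occupies CDC20 as a pseudosubstrate, went from 38.6 ± 0.678 to 67.6 ± 0.208 CPM (SD, n = 2), a log2 fold change of 0.81 ± 0.06 (SE, adjusted p = 3.4e-13). MAD2L1, the protein that captures CDC20, was at 0.50 and BUB3 at 0.17. TRIP13, an ATPase that takes the checkpoint complex apart, was at 0.98, whereas its adaptor MAD2L1BP was at -0.063 and did not pass the test (adjusted p = 0.55).

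Of 22 mRNAs whose proteins the APC/C destroys, 21 were higher and 0 lower with edgeR at an adjusted p under 0.05. Over all genes 19.3% were higher and 17.3% lower. At an unadjusted p under 0.05 the counts were also 21 and 0, against 3422 and 3231 of all 15075 genes tested. With DESeq2, 18 were higher and 0 lower, against 15.1% and 10.5% of all genes given an adjusted p. GMNN, SKP2 and NUSAP1 no longer passed with DESeq2 (adjusted p = 0.11, 0.16 and 0.14). The remaining gene was CDC25A, a phosphatase that activates cyclin-dependent kinases, at 0.35 (adjusted p = 0.14). CDC25A and NUSAP1 were named after their values were seen. The median log2 fold change was 0.89. CCNB1, cyclin B1, rose from 125 ± 3.39 to 213 ± 5.22 CPM (SD, n = 2), by 0.76 on the log2 scale, and CCNA2, cyclin A2, by 0.82. AURKA, a kinase of the spindle poles, rose by 0.96 and PLK1, a mitotic kinase, by 1.00. CDC6, which loads the replicative helicase and is an FZR1 substrate, had the largest change of the list at 2.30-fold (adjusted p = 3.5e-13). GMNN, geminin, which keeps replication from starting again, was at 0.33 (adjusted p = 0.026), and SKP2, the substrate receptor of another ligase, at 0.20 (adjusted p = 0.040).

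Most other ubiquitin genes near the pathway did not pass the test. Of 5 tested deubiquitinases and further E2 enzymes, 0 were higher with edgeR, against 19.3% of all genes, and 1 was lower, against 17.3%. At an unadjusted p under 0.05, 0 were higher as well, against 3422 of all 15075 genes tested. None was higher with DESeq2, against 15.1% of all genes given an adjusted p. UBE2D1, which can also start chains for the APC/C, was lower at -0.26 with edgeR (adjusted p = 0.018) and did not pass with DESeq2 (adjusted p = 0.12). The deubiquitinases USP37 and OTUD7B, which oppose the complex, had log2 fold changes of 0.00023 and -0.032 and did not pass the test. USP44, named after its values were seen, had 1 count in each siControl library and 0 in the others and was not tested. Of 7 genes of the SCF, the other main cell cycle ligase, 1 was higher (CKS1B, at 0.62) and 1 lower (FBXW7, at -0.40), against 19.3% and 17.3% of all genes. FBXW7 did not pass with DESeq2 (adjusted p = 0.061). SKP1 and CUL1 were at 0.024 and -0.048. Of 6 genes of cohesin, the ring that separase opens, and its release factor, 3 were higher (RAD21, SMC1A at 0.32 and SMC3 at 0.22) and 1 lower (STAG1, at -0.33). Over all genes 19.3% were higher and 17.3% lower, and the median log2 fold change of these 6 was 0.038. CKS1B, FBXW7, SMC1A, SMC3 and STAG1 were named after their values were seen. RAD21, the subunit that separase cuts, was at 0.12 ± 0.03 (SE, adjusted p = 0.0026).

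**Figure D4:**
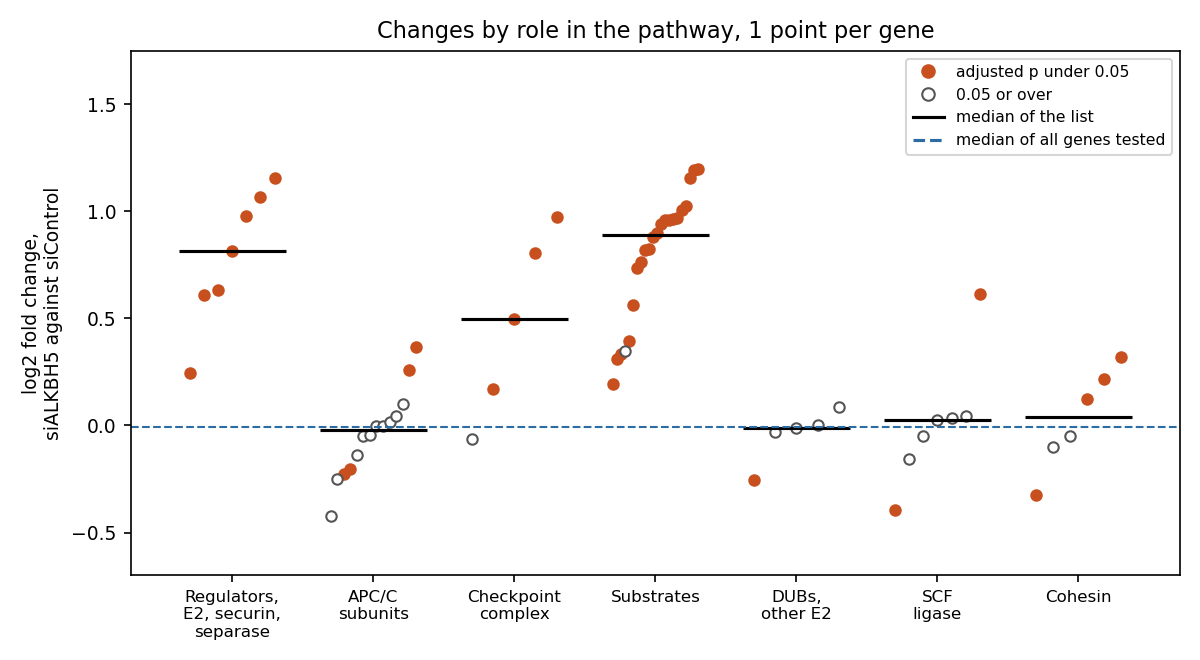
The log2 fold change of each tested gene, grouped by role (1 point per gene), filled where the adjusted p was under 0.05, with the median of each list (black line) and of all genes tested (dashed line). Regulators and substrates have medians of 0.81 and 0.89 and lowest values of 0.24 and 0.20. The 14 subunits have a median of -0.023 and a highest value of 0.37, so the lists overlap.

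The genes with the pattern most similar to that of CDC20 over the 4 libraries were sought among 9258 genes with a mean of at least 10 CPM, by the Euclidean distance of their centred log2(CPM + 0.5). The 5 nearest were ACSS2 (distance 0.0249), GTSE1, CEP152, STRIP2 and GLB1L2 (0.0323). All 5 had log2 fold changes of 0.82 or 0.83, against 0.81 for CDC20. Genes were picked for moving like CDC20 over these 4 libraries, so the similar fold changes follow from the search and are no separate result.

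Some of the 10 genes share sequence with other genes, among which the counting could split reads. Of the 50-base words in ANAPC1 transcripts, 31.0% also occur in transcripts of other genes, the most of the 10 genes, led by AC083899.1 with 18.4%, so the value of ANAPC1 is uncertain. AC083899.1, named after this share was seen, was counted 15 and 20 times in the controls and 33 and 30 times in the knockdown. AC125232.2, with 7.37% of these words, was counted 39 and 41 times in the controls and 49 and 29 times in the knockdown. AC133644.3, with 9.21%, was counted 7 and 9 times in the controls and 5 and 10 times in the knockdown. Both were named after their values were seen. For UBE2S the share was 16.1%, mainly with the pseudogene UBE2SP1, which was counted 14 and 19 times in the controls and 32 and 36 times in the knockdown. The other same-named copies with any count were ANAPC1P1, CDC20P1, CDC27P1, UBE2CP1, UBE2CP2 and UBE2SP2. When the counts of every gene with at least 5% of such words were added, the log2 fold change was 0.35 for ANAPC1 and 1.07 for UBE2S. Strand was not stated to be used in counting, and 7.67% of the exonic bases of ANAPC11 lie in exons of other genes, namely NPB on the same strand, with 0 counts, and PCYT2 and ALYREF on the opposite strand. For the other 9 genes this share was at most 4.10%.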

How the data were processed

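RNA-seq of HaCaT cells comprised 2 libraries of each group. The authors deposited raw counts per gene in 1 table per replicate number, beside FPKM and their own fold changes and p-values, which were not used. The submitters' processing notes name HISAT2 2.0.5, featureCounts 1.5.0-p3, DESeq2 1.20.0 and hg38. All 58735 gene spans equal those of GENCODE 29. 

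Counts were fitted by the quasi-likelihood test of edgeR 4.0.16 under R 4.3.3, after filterByExpr and TMM scaling and without covariates, and adjusted by Benjamini-Hochberg over 15075 genes. CPM and FPKM use TMM-scaled library sizes. The standard error is the log2 fold change divided by the root of F. Intervals are at 95%. Calls required an adjusted p below 0.05, and by the study's threshold also at a log2 fold change of 1. DESeq2 1.42.0 was the other test. Within groups, replicates differed by more than sampling noise (chi-square per degree of freedom 1.73 and 1.85). The steps were tested on simulated data. The 10 genes, all lists and all tests were chosen with earlier results of these data known. Named were the 10 genes, ALKBH5, and preset genes of each list whatever their values. Genes outside this rule are marked in the text as named after their values were seen, and the genes most like CDC20 came from the stated distance. The same search for FZR1 is not reported here. Motifs were searched in RefSeq promoters.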

Additional observations from a re-analysis of the deposited data

How the results depend on the processing

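The alternatives were the DESeq2 test, scaling by DESeq2 size factors or by totals alone, an unfiltered table, a minimum mean count of 10, a replicate block, leaving out each of the 4 libraries, adding same-named copies, and, chosen after seeing the data, genes with shared 50-base words summed. Under each of these 12 settings 9 of the 10 genes passed an adjusted p of 0.05, and all 10 log2 fold changes stayed positive. The genes past a log2 fold change of 1 numbered 2, or 3 without siALKBH5 replicate 2, where UBE2C joined at 1.01. With each library left out, the log2 fold change of CDC20 ranged from 0.79 to 0.84, of UBE2C from 0.95 to 1.01, of ESPL1 from 1.11 to 1.21, of FZR1 from 0.22 to 0.28 and of ANAPC1 from 0.29 to 0.46. ANAPC11 had an adjusted p of at most 0.44 and in no setting under 0.05. The list genes that passed numbered 34, and from 28 to 35 under the alternatives run on them. ALKBH5 stayed between -0.90 and -0.79.

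Same-numbered libraries were deposited in the same table, and the labels do not say what the number means. Their deviations had a correlation of 0.042 over the 15075 genes and 0.091 over genes with a mean of at least 100 counts, which was not taken as pairing. With the replicate block 9 of the 10 genes passed, and over all genes 3091 were higher and 2831 lower, against 2913 and 2610 without it. With 2 libraries a group, a lone library left by leaving one out is assumed to vary like the other group.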
